A study of Mus musculus with 2 samples.

Results

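The cytosolic ribosomal protein genes are those whose products, together with ribosomal RNA, make up the 2 subunits of the ribosome that works in the cytoplasm. They were taken by symbol: every gene whose name starts with Rpl or Rps followed by a digit, plus Rplp0, Rplp1, Rplp2 and Rpsa. Of 101 symbols that start in this way, 16 were left out as pseudogenes (names with -ps), the kinases of the Rps6k family or Rps19bp1. The rule gave 85 of the 32285 genes in the matrices, 52 of the large subunit (Rpl and Rplp) and 33 of the small subunit (Rps and Rpsa). In the mouse build GRCm38 all 85 were annotated as protein coding, and they lay scattered over 19 chromosomes, with 14 on chromosome 7 and 4 on the X chromosome. The longest annotated transcript had a median of 937 bases, against 2701 bases over 21630 protein-coding genes. All but Rpl10l, a copy of Rpl10 without introns, had UMIs (unique molecular identifiers, each standing for 1 captured RNA molecule), and 82 had at least 1000 UMIs in each library.

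Ribosomal proteins are needed in nearly equal numbers, since each ribosome holds about a single copy of most of them, and their mRNAs are among the most abundant of any cell. These mRNAs begin with a C followed by a run of C and T letters, the 5′ terminal oligopyrimidine (TOP) motif, through which the kinase mTOR and the binding protein Larp1 set how far they are translated. Mature neutrophils are short-lived cells that no longer divide.

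The study sorted CD45+ leukocytes from digested tumours of C57BL/6 mice and made 1 droplet library from each genotype, WT and Ythdf2 KO, with a 5′ single-cell kit. Ythdf2 is a reader protein of m6A, a methylated adenosine in mRNA, and promotes decay of marked transcripts. The sample labels speak of knockout tumours, the design text of conditional knockout mice, and the series title of a tumour-intrinsic role, and these do not agree on the cells in which the gene was deleted. No age, sex, tumour line or number of pooled animals is given for either group.

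The WT library held 20886 barcodes and 168912853 UMIs, and the library labelled Ythdf2 KO 16312 barcodes and 134066610 UMIs, with medians of 5554 and 5617 UMIs per barcode. After filters 20415 and 15844 barcodes were kept. Ythdf2 itself stood at 48.4 and 46.1 CPM (UMIs of a gene per 1000000 UMIs of the barcodes summed) in the kept barcodes, a ratio of 0.952 (0.920 to 0.984), close to 1 though its interval lies below it. By gate its ratio was 0.713 (0.551 to 0.921) in T cells, 0.964 in NK cells, 0.966 in monocytes and macrophages and 2.28 (1.23 to 4.57, from 13 and 52 UMIs) in neutrophils. Whether the counted reads lie in a deleted part is not known. Each genotype is 1 library: there is no replicate check of any difference, no test was made, and all intervals (95%, exact) cover counting error only. The libraries shared 101 barcode sequences, which were kept unless said otherwise.

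Cell types were set by UMIs of marker genes, called gates here, at least 2 marker genes in most gates. A single gate was passed by 66.1% of kept WT barcodes and 65.3% of kept Ythdf2 KO barcodes. Those that passed several gates (27.0% and 26.9%), which can be doublets or hold free RNA, and those that passed none (6.87% and 7.78%) were set aside. Markers outside the gates were compared with the names. The summed level of S100a8, S100a9 and G0s2 was 171417 and 109101 CPM in the neutrophil gate but 75.8 and 97.1 in the T gate. The summed level of Klrk1, Nkg7 and Gzma was 10237 and 10431 in the NK gate. That of Ighm, Cd79b and Ly6d was 5542 and 5144 in the B gate, against at most 78.6 in the T, NK, neutrophil and monocyte/macrophage gates. Trac, Trbc2 and Lck reached 1717 and 1870 in the T gate and at most 365 in the other 4. In the T gate the NK markers Klrk1, Nkg7 and Gzma, which killer T cells also use, stood at 1672 and 2228 CPM. The dendritic cell gates were set apart less well by such markers: Cd74, H2-Aa and Cst3, meant for cDC2, summed to 32453 and 30139 CPM in the cDC2 gate, 53378 and 55922 in the cDC1 gate and 34815 and 36300 in the mature dendritic cell gate. The B cell markers reached 2169 and 3047 in the plasmacytoid dendritic cell gate, so these names rest on the gate markers.

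The start sites were searched for a TOP-like run. Of 65 members found among RefSeq promoters (build GRCm38.p6), 30 (46.2%) had a C followed by at least 4 more C or T letters that began within 5 bases of the annotated start, read on the gene's strand only. The same held for 21.5% of 17491 protein-coding genes and 18.3% of all 32851 promoters in the table. A run was counted from a C inside this window, so more C or T letters can lie before it, as in Rpl34 and Rpl7a. A longer run of at least 8 letters was found in 32.3% of members and 5.16% of protein-coding genes. The windows below run from 15 bases before the start to 15 bases from it, with the run in capitals. They show 3 genes with long runs and then the Rps27 group, which the values below turn on.
Rpl13a: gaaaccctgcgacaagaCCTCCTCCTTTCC
Rpl15: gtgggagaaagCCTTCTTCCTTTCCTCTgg
Rpl27a: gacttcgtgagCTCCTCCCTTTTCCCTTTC
Rps27: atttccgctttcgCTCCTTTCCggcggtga
Rps27rt: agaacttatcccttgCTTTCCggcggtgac
Rps27l: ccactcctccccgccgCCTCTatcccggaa
They lie at chr7:45128731-45128760 (Rpl13a, minus strand), chr14:18270972-18271001 (Rpl15, minus), chr7:109519180-109519209 (Rpl27a, plus), chr3:90213634-90213663 (Rps27, minus), chr9:114982725-114982754 (Rps27rt, minus) and chr9:66946071-66946100 (Rps27l, plus). The run is 14 letters long in Rpl13a, 17 in Rpl15 and 20 in Rpl27a, and in Rpl13a and Rpl27a it goes on past the window shown. In Rps27 it has 9 letters, and in Rps27l only 5. Rps27l has a second annotated start with no such run in its window. A missing match says only that the letters are not in this window, and annotated starts can differ from those used in these cells.

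Lymphocytes devoted close to 1 in 3 of their transcripts to ribosomal proteins. The pooled share of UMIs in the NK gate was 32.6% in WT (2372 barcodes) and 32.2% in Ythdf2 KO (1348 barcodes). In the B gate it was 32.5% (112 barcodes) and 33.2% (272), and in the T gate 30.6% (544) and 29.9% (425). The quartile ranges over barcodes of these 3 gates overlapped in each library. The few barcodes of the tumour or stromal gate, which have markers such as Krt8 or Col1a1 and no UMI of Ptprc, the gene of CD45, had 32.0% (8 barcodes) and 30.7% (73).

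Myeloid cells had lower shares. Monocytes and macrophages, the largest gate, had 14.1% in WT (9256 barcodes) and 15.2% in Ythdf2 KO (6856). Mature dendritic cells, which carry Ccr7 and Fscn1 and are known for migrating to lymph nodes with antigen, were close to them at 14.6% (440) and 13.3% (221). The other dendritic cell gates stood between these and the lymphocytes: cDC2 at 23.4% and 22.2% (70 and 35 barcodes), cDC1 at 21.4% and 21.3% (23 and 14), and plasmacytoid dendritic cells at 21.9% and 23.9% (44 and 53). Neutrophils were lowest, with a pooled 4.06% (599) and 6.39% (1045) and a median per barcode of 3.49% in both libraries.

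**Figure D1:**
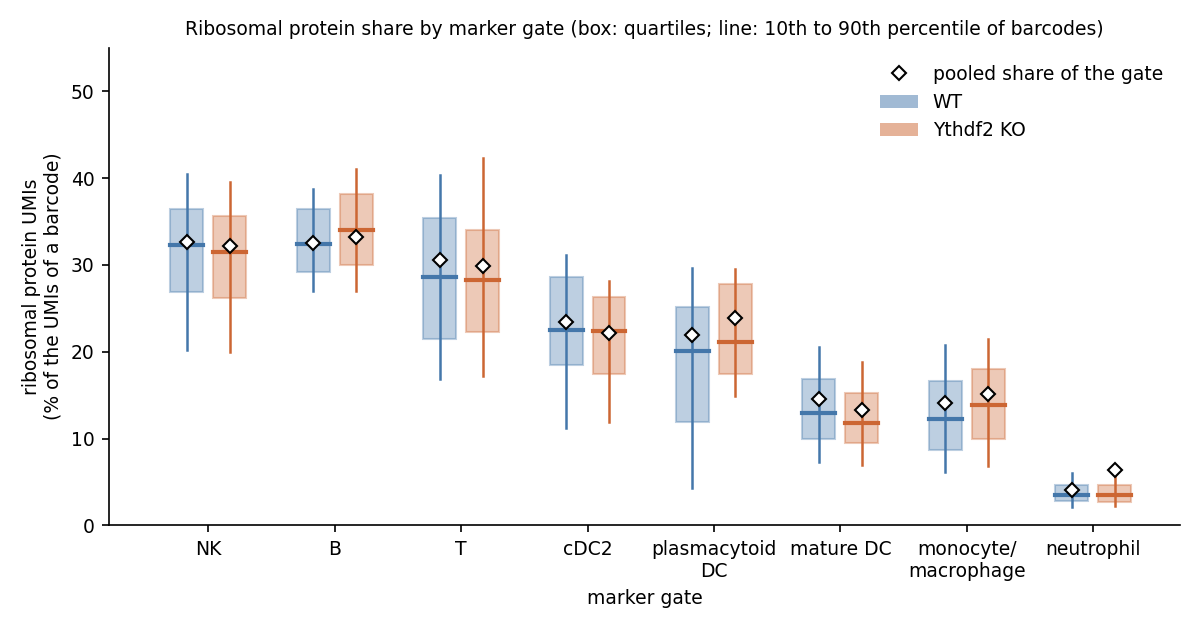
Share of a barcode's UMIs that came from the 85 ribosomal protein genes (vertical axis, percent) in 8 marker gates, WT in blue and Ythdf2 KO in orange. Boxes give the quartiles over barcodes with the median as a bar, lines the 10th to 90th percentile, and diamonds the pooled share; NK, B and T gates sit at medians of 28.3% to 34.04%, and the neutrophil gate at 3.49% in both libraries, with the Ythdf2 KO diamond above its box.

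The order of the gates was much the same in both libraries. Over the 8 gates with at least 20 barcodes in each, the rank correlation between libraries was 0.929, a description of 8 points that share their library, gates and depth. Neighbours swapped places between libraries in 3 cases: NK with B, cDC2 with plasmacytoid dendritic, and mature dendritic with monocyte/macrophage gates. In numbers of molecules, the median barcode held 3335.5 and 2913 ribosomal protein UMIs in the NK gate, 1018.5 and 1094 in the T gate, 696 and 685.5 in the B gate, 561 and 730 in the monocyte/macrophage gate, and 71 and 63 in the neutrophil gate. A neutrophil barcode still held 1892 and 1704 other UMIs at the median, so the low count does not come with an empty barcode. S100a8 and S100a9, which encode the calprotectin of neutrophil granules and cytosol, led the other genes there, and the 20 most abundant other genes took 36.9% and 30.4% of neutrophil UMIs, against 14.7% in monocytes and macrophages of either library.

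Shares differed among barcodes of 1 gate by far more than counting error. When each barcode was thinned to 1000 UMIs, the standard deviation over WT barcodes was 8.10 percentage points in the NK gate, where binomial counting alone gives 1.47. The same pair was 9.46 and 1.44 in the T gate, 5.71 and 1.06 in the monocyte/macrophage gate, 4.88 and 1.48 in the B gate and 2.50 and 0.62 in the neutrophil gate. Barcodes below 1000 UMIs could not be thinned, so 9109 of 9256 WT monocyte/macrophage barcodes and 583 of 599 WT neutrophil barcodes entered.

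Depth went along with the share in the NK, T, monocyte/macrophage and mature dendritic cell gates. WT NK barcodes of 500 to under 2000 UMIs had a pooled 18.4%, those of 2000 to under 5000 UMIs 26.7%, those of 5000 to under 10000 UMIs 33.4% and deeper ones 33.0%. For WT monocytes and macrophages the same bands gave 8.64%, 12.2%, 15.1% and 15.9%. For WT T cells they gave 22.8%, 29.2%, 32.7% and 32.0%. Within each band the T and NK shares stayed above those of monocytes and macrophages in both libraries, but T cells were above NK cells below 5000 UMIs (29.2% against 26.7% in WT barcodes of 2000 to under 5000 UMIs) and below them in deeper WT barcodes. Mature dendritic cells had 8.56%, 13.6% and 14.8% in WT and 10.1%, 12.3% and 13.5% in Ythdf2 KO in the bands below 10000 UMIs. The share did not climb in patrolling monocytes or B cells, nor in WT neutrophils below 5000 UMIs. Patrolling monocytes had 18.7%, 17.8% and 16.0% in WT and 18.7%, 18.3% and 16.4% in Ythdf2 KO from 2000 UMIs upward. WT neutrophils had 4.37% and 3.44% in the first bands, but 7.99% in the 14 barcodes of at least 5000 UMIs. In the first bands B cells had 32.8% and 32.9% in WT and 34.7% and 33.1% in Ythdf2 KO. Ythdf2 KO neutrophils had 3.87% and 3.9999%, and 12.2% in 25 barcodes of 5000 to under 10000 UMIs. B cells were shallow, with medians of 2099.5 and 1984.5 UMIs, and still had shares like those of deep NK cells.

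**Figure D2:**
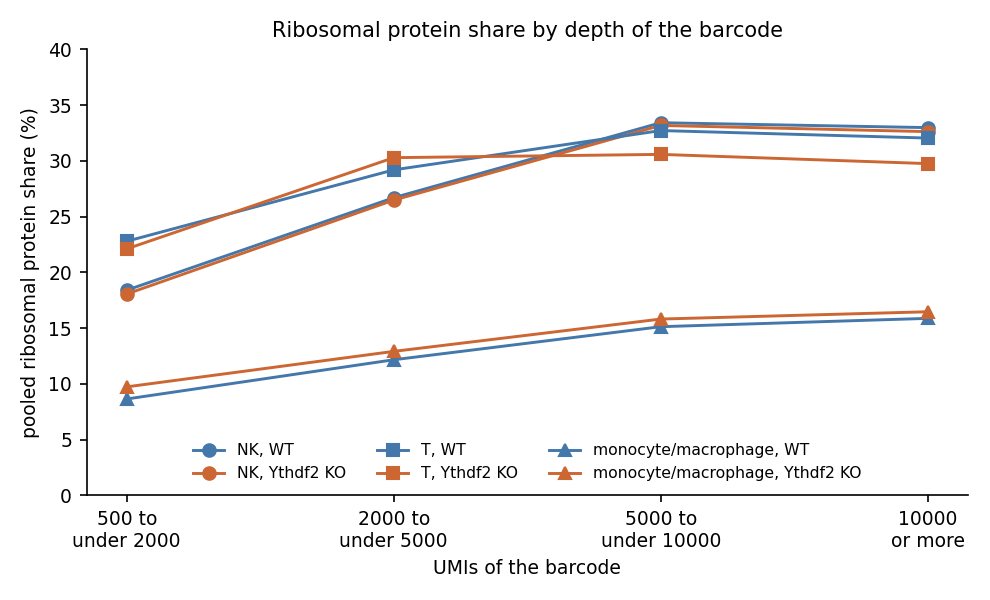
Pooled ribosomal protein share (vertical axis, percent of UMIs) of the NK, T and monocyte/macrophage gates in 4 bands of UMIs per barcode (horizontal axis), WT in blue and Ythdf2 KO in orange. Shares climb with depth up to about 5000 UMIs, from 18.4% to 33.4% in WT NK cells, and the monocyte/macrophage lines stay lowest in every band.

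Subsets within a gate differed as well. Regulatory T cells, with Foxp3, had lower shares, 20.3% and 22.4% (40 and 23 barcodes), below CD4 T cells at 27.3% and 24.6% (39 and 20), γδ T cells at 28.9% and 30.7% (157 and 79) and CD8 T cells at 33.95% and 31.1% (99 and 122). Median depth ranged from 2837 UMIs in Ythdf2 KO regulatory T cells to 6869 in Ythdf2 KO CD8 T cells, and its part in these differences was not tested.

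NK cells with at least 3 UMIs of the granzymes Gzmc to Gzmg had 32.9% and 32.7% (1864 and 978 barcodes), and NK cells with none had 28.3% and 26.6% (174 and 184). The former were also deeper, at medians of 11826.5 and 11313 UMIs against 3360.5 and 3403. Among monocytes and macrophages, patrolling monocytes (at least 2 of Ace, Adgre4 and Treml4) had 17.2% and 17.4% (173 and 617), other monocytes (Ly6c2 or Vcan, little C1q) 15.5% in both (4165 and 3137), and macrophages with at least 10 UMIs of the complement genes C1qa, C1qb and C1qc 12.9% and 14.2% (3443 and 2121).

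Most members followed the gates together. Against the monocyte/macrophage gate of the same library, 77 of 83 measured members were at least 1.5-fold higher in WT T cells and 73 of 83 in Ythdf2 KO T cells. All genes measured gave 33.8% and 34%. In the NK gate it was 77 of 83 and 76 of 84 members, beside 33.2% and 31.2% of all genes, and in the B gate 76 of 82 and 75 of 82, beside 33.5% and 32%. The members' median log2 ratios were 1.10 and 0.99 in T cells, 1.21 and 1.08 in NK cells and 1.18 and 1.08 in B cells, while the medians over all genes lay between 0.03 and 0.18. Measured means at least 50 UMIs over both gates.

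Rpl12, a protein of the stalk base of the large subunit, was among those that differed most: its level was 4482 CPM in WT T cells, 4520 in NK cells and 4946 in B cells, against 1049 in monocytes and macrophages. In Ythdf2 KO the same levels were 4273, 4609 and 5493, against 1292. Rps18, of the small subunit head, stood at 5257, 7288 and 5170 in WT T, NK and B cells and at 1756 in monocytes and macrophages. Rplp0, which anchors the stalk, stood at 2715, 3096 and 2233, against 1390. Its partners in the stalk were higher in lymphocytes as well, Rplp1 at 6564 in WT T cells against 2200, and Rplp2 at 4846 against 2261. Rpsa, which is also known as a laminin receptor, stood at 4247 against 1780.

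Neutrophils were at least 1.5-fold lower than monocytes and macrophages in 80 of 83 members in WT and in 78 of 83 in Ythdf2 KO, beside 63.4% and 53.2% of all genes. The members' median log2 ratio was −1.99 in WT and −1.30 in Ythdf2 KO, and that of all genes −1.06 and −0.67, so the low level there is shared in part by most genes. When ratios were centred on the median gene, 46 of 83 Ythdf2 KO members remained at least 1.5-fold lower. The share of all genes past the line after centring is not given here. The Ythdf2 KO neutrophil gate includes the few deep barcodes described below, which held 48.3% of its ribosomal protein UMIs, so its members' levels are raised by them. Rps20 stood at 466 CPM in WT neutrophils against 2172.

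Members that missed the 1.5-fold line in at least 1 library numbered 10 in T cells, 7 in NK cells and 7 in B cells. Of these Rps27l, Rpl36al and Rpl7l1 were common to the T, NK and B gates. Rpl36al stood at 1071 CPM in WT T cells and 902 in monocytes and macrophages, whereas its parent gene Rpl36a stood at 1655 and 499. Rps9, Rps27, Rps27rt, Rpl29 and Rpl3l missed it in neutrophils. Of these Rpl29 passed it in WT (151 CPM against 432) and missed it only in Ythdf2 KO (250 against 258). Below 5000 UMIs, without the deep barcodes, its Ythdf2 KO levels were 91.4 in neutrophils and 258 in monocytes and macrophages. Rps9, a small subunit protein known for a role in decoding accuracy, stood at 2496 and 2632 CPM in neutrophils against 3180 and 3340 in monocytes and macrophages, a much smaller gap than that of Rps20.

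The mix of ribosomal protein mRNAs can be read without the total, as each member's share of all ribosomal protein UMIs. Over the 5 large gates, the highest share was a median of 1.402 times the lowest over 82 members, from 1.08 for Rpl23 upward. It was at least 1.5 times for 37 members and at least 2 times for 9. Rps27l varied most (6.84 times): 0.267% and 0.273% of ribosomal protein UMIs in monocytes and macrophages, 0.196% in neutrophils of both libraries, 0.112% and 0.117% in NK cells, 0.0796% and 0.124% in T cells and 0.0402% and 0.0387% in B cells. Rps9 took 6.14% and 4.12% in neutrophils but 1.32% and 1.36% in NK cells. Rps27 took 3.40% and 2.33% in neutrophils, 2.60% and 2.33% in B cells and 1.00% and 0.918% in NK cells. Rps27a, which is made as a fusion of ubiquitin and a small subunit protein, took 4.204% and 3.24% in neutrophils and 1.64% and 1.62% in B cells. Rps18 took 0.867% and 1.399% in neutrophils and 2.24% and 2.35% in NK cells, and Rpl12 0.617% and 1.04% against 1.39% and 1.43%. The Ythdf2 KO neutrophil values depend on a few deep barcodes, which are described below. In neutrophil barcodes below 5000 UMIs, a limit set after seeing the data, Rps9 took 6.58% and 6.66%, Rps27 3.64% and 3.57%, Rps27a 4.47% and 3.91%, Rps18 0.804% and 0.877%, and Rpl12 0.623% and 0.606%.

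**Figure D3:**
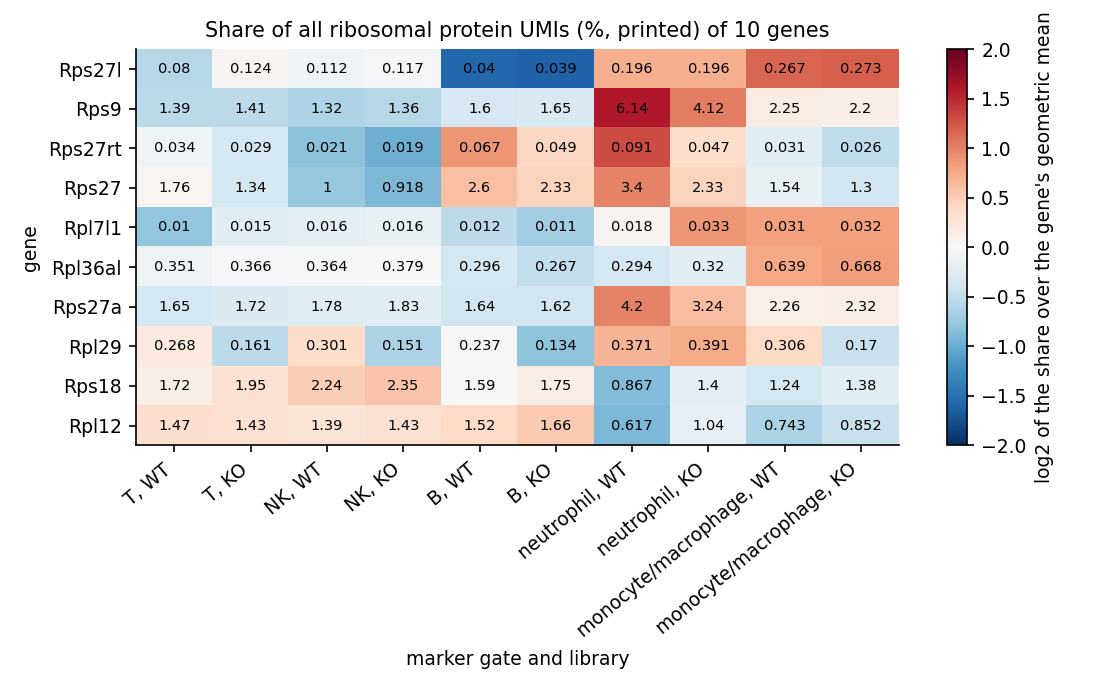
Share of all ribosomal protein UMIs (printed in each cell, percent) of the 10 members whose share varied most over 5 marker gates, in WT and Ythdf2 KO (KO) columns. Colour is the log2 of the share over the gene's own geometric mean across the 10 columns: Rps9 and Rps27a are red in neutrophils, Rps27l and Rpl36al in monocytes and macrophages, and Rpl29 is bluer in the Ythdf2 KO column of the T, NK, B and monocyte/macrophage gates.

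Large and small subunit members did not keep 1 ratio across gates. UMIs of large subunit members over those of small subunit members were 1.25 and 1.24 in NK cells, 1.22 and 1.23 in monocytes and macrophages, 1.189 and 1.203 in T cells, 1.11 in B cells of both libraries, 1.12 and 1.10 in mature dendritic cells and 1.06 and 1.17 in neutrophils. The Ythdf2 KO neutrophil value includes the few deep barcodes described below, which held 48.3% of that gate's ribosomal protein UMIs. No value without them is given here. Since mRNAs differ in length and capture, the ratio within a gate is not a ratio of proteins.

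Several members are copies of another, and their levels tell the cell types apart. Rps27l (chr9:66946086-66949516) encodes a close relative of Rps27 that is known as a target of p53, and its longest stretch of identical bases with Rps27 transcripts was 11, so reads can be told apart. Its level was 3528 and 3271 CPM in mature dendritic cells (7872 and 3414 UMIs). It was 1350 and 1779 in cDC1 (304 and 199 UMIs from 23 and 14 barcodes), 441 and 566 in cDC2, 376 and 414 in monocytes and macrophages, 365 and 377 in NK cells and 243 and 371 in T cells. The lowest levels were those of B cells, 131 and 128, and neutrophils, 79.6 and 125 (64.3 and 76.1 in neutrophil barcodes below 5000 UMIs). Mature dendritic cells were therefore high in Rps27l while their ribosomal protein share was among the lowest. Rps19 was high there too, at 4394 and 4546 CPM. It stood at 1836 and 2095 in monocytes and macrophages, 4058 and 3958 in NK cells and 5659 and 5823 in B cells. Rps27, the parent of Rps27l, stood at 3185 and 2570 in mature dendritic cells and at 8445 and 7716 in B cells, the opposite order of these gates.

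Rpl22l1, the relative of Rpl22, stood at 1105 and 1156 CPM in NK cells, 830 and 889 in B cells, 786 and 841 in T cells, 289 and 338 in monocytes and macrophages, and 81.1 and 135 in neutrophils. Rpl22 itself stood at 1985 and 1972, 2729 and 2540, 2172 and 2149, 1022 and 1079, and 213 and 486 in the same gates, so the NK gate was highest for the copy and the B gate for the parent. The Ythdf2 KO neutrophil levels include the few deep barcodes described below. In neutrophil barcodes below 5000 UMIs Rpl22l1 stood at 78.8 and 111 CPM and Rpl22 at 203 and 200. Rpl3l, a copy of Rpl3 known from heart and skeletal muscle, was rare: 18.03 and 13.7 CPM in neutrophils (24 and 32 UMIs), 18.8 and 18.2 in mature dendritic cells, 16.9 and 17.1 in patrolling monocytes, 6.02 and 6.23 in monocytes and macrophages as a whole, and 2 and 1 UMIs in all NK cells. Rpl39l, known from the testis, had 116 and 136 UMIs over all barcodes. Rpl10l, also a testis gene, had none, which allows at most 0.0178 and 0.0224 CPM. Rps27rt was identical to Rps27 over 341 bases, so its 9349 and 6418 UMIs are uncertain.

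The members' total differed between the libraries in both directions. The Ythdf2 KO share minus the WT share was −0.67 percentage points in the T gate (counting interval −0.75 to −0.58), −0.44 in the NK gate (−0.47 to −0.41), 0.70 in the B gate (0.49 to 0.90) and 1.05 in the monocyte/macrophage gate (1.03 to 1.06). In the smaller gates it was 1.94 in plasmacytoid dendritic cells, −1.21 in cDC2 and −1.30 in mature dendritic cells, and in neutrophils 2.33, described below. In T cells the direction was not stable: as the mean over barcodes the difference was 0.01, and among barcodes below 5000 UMIs it was 0.83. Without the 101 shared barcodes it was −0.76. Within the T gate, CD8 T cells were 2.84 points lower in Ythdf2 KO, with a share of 31.1% against 33.95%, and γδ T cells 1.72 points higher.

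Among monocytes and macrophages the size of the difference varied by subset. C1q macrophages were 1.31 points higher in Ythdf2 KO. Barcodes in none of the patrolling, C1q macrophage and monocyte sets were 1.86 points higher (14.4% against 12.5%). These can include barcodes with monocyte markers but too much C1q for the monocyte set. Patrolling monocytes were 0.20 points higher, with a counting interval of 0.13 to 0.27. The other monocytes had pooled shares that differed by less than counting error (−0.02 to 0.02) and a median 0.41 points higher, but at 5000 to under 10000 UMIs they had 16.6% against 16.9% in WT, and above that 17.2% against 17.7%. The whole gate was higher in Ythdf2 KO in each band of depth: 9.73%, 12.9%, 15.8% and 16.5% against the WT values above. Its barcodes were deeper in Ythdf2 KO, with a median of 5241.5 UMIs against 4589.5, and patrolling monocytes were 617 of 6856 barcodes against 173 of 9256.

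The pooled neutrophil share was 2.33 points higher in Ythdf2 KO, while the medians differed by −0.01. The difference lay mostly in barcodes of at least 5000 UMIs: 31 of 1045 Ythdf2 KO barcodes held 16.1% of the gate's UMIs and 48.3% of its ribosomal protein UMIs, with a share of 19.2%. In WT 14 of 599 such barcodes held 6.55% and 12.9%, with a share of 7.99%. Below 5000 UMIs the shares were 3.79% and 3.94%. The 31 barcodes ranged from 1.29% to 51.0% with a median of 11.1%, and carried other marks than the rest of their gate. Their summed level of S100a8, S100a9 and G0s2 was 36246 CPM against 123031 below 5000 UMIs. Their tumour and stromal gate markers stood at 1087 against 17.4, from 10 of the 31 barcodes, and the division genes Mki67 and Top2a at 395 against 13.3, from 9. Mpo, Elane, Prtn3 and Ctsg, genes of neutrophil precursors, had 4 UMIs, and Ngp, Camp and Ltf, genes of later granules, none. The part of these marks in the difference was not tested, and these marker sets were chosen after the share had been seen.

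Members were also counted past a 1.2-fold difference between libraries. In T cells 4 of 82 measured members were at least 1.2-fold higher in Ythdf2 KO, beside 20.6% of all genes, and 7 lower, beside 23.2%. In NK cells it was 0 higher (8.02% of all genes) and 2 lower (16.9%) of 82, and in B cells 0 higher (23.6%) and 2 lower (22.2%) of 81. In monocytes and macrophages 6 of 84 were higher (9.18%) and 1 lower (19%). In neutrophils 76 of 83 were higher (37.9%) and 2 lower (17.8%), but below 5000 UMIs 7 of 82 were higher, beside 24.6% of all genes. The members' median ratio was 1.00 in T, 1.01 in NK, 1.03 in B and 1.10 in monocytes and macrophages, and for mature dendritic cells it was 0.927. There 1 of 83 was higher, beside 18.1% of all genes, and 12 were lower, beside 18.8%, among them Rpl29 (0.395), Rps28 (0.721) and Rpl39 (0.750).

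**Figure D4:**
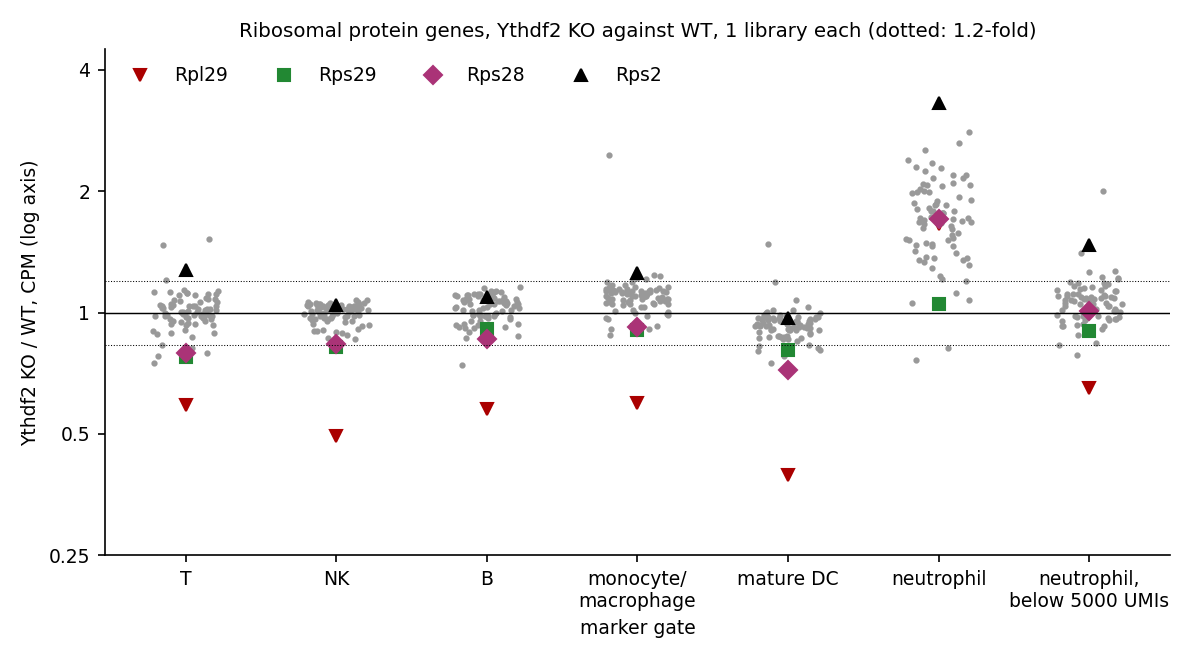
Ratio of the level in Ythdf2 KO to that in WT (vertical log axis, CPM) of each measured ribosomal protein gene in 6 marker gates, and in neutrophil barcodes below 5000 UMIs, with grey points for genes and coloured marks for Rpl29, Rps29, Rps28 and Rps2. Rpl29 is lowest in the T, NK, B, monocyte/macrophage and mature dendritic cell gates (0.395 to 0.598), and the neutrophil points fall from a median of 1.71 to near 1 without the deep barcodes.

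Rpl29 stood apart. It encodes a small, basic large subunit protein that is also known to bind heparin (chr9:106429454-106431568). Its level was 982 CPM in WT NK cells and 485 in Ythdf2 KO NK cells, a ratio of 0.494 (0.481 to 0.507). In T cells it was 818 and 483 (0.590), in B cells 770 and 444 (0.576), in monocytes and macrophages 432 and 258 (0.598), in cDC2 696 and 283 (0.407) and in mature dendritic cells 390 and 154 (0.395). It had the lowest ratio of all measured members in the T, NK, B, monocyte/macrophage and mature dendritic cell gates, and also in C1q macrophages (0.622), monocytes (0.558) and patrolling monocytes (0.484).

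The lower level of Rpl29 was not found in every gate. Tumour or stromal barcodes had 2080 and 2049 CPM, a ratio of 0.986 (0.884 to 1.10), from 361 and 3406 UMIs of 8 and 73 barcodes. Plasmacytoid dendritic cells had 595 and 612, a ratio of 1.03 (0.801 to 1.33), from 102 and 169 UMIs. In neutrophils the ratio was 1.66, and 0.650 (91.4 against 141 CPM) below 5000 UMIs. The barcodes of no gate had 655 and 660. In NK cells the ratio was 0.711 (0.417 to 1.18) in the shallowest band and 0.550, 0.498 and 0.490 in the deeper ones. In monocytes and macrophages it was 0.831, 0.643, 0.548 and 0.621 in the same order, and in T cells 0.568, 0.517, 0.436 and 0.811. No band was above 1.

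**Figure D5:**
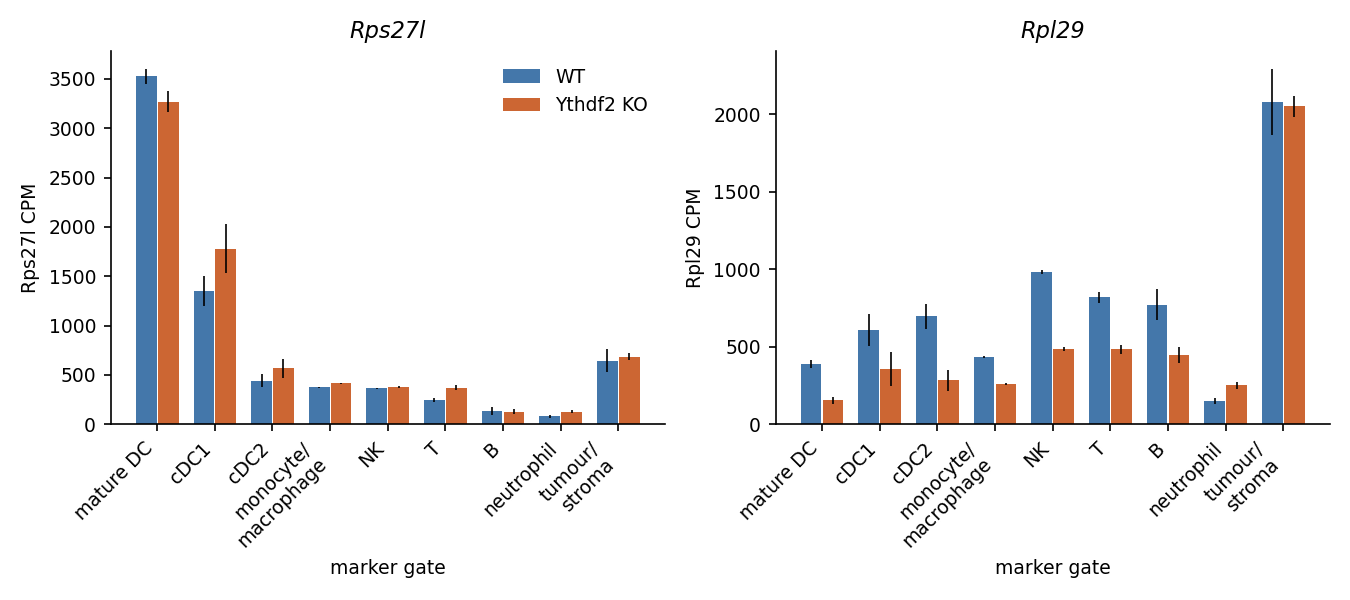
Levels (vertical axes, CPM, starting at 0) of Rps27l on the left and Rpl29 on the right in 9 marker gates, WT in blue and Ythdf2 KO in orange, with bars for 95% counting error (normal approximation). Rps27l is highest in mature dendritic cells in both libraries (3528 and 3271), and Rpl29 is lower in Ythdf2 KO in each leukocyte gate shown but neutrophils, and equal within counting error in tumour or stromal barcodes.

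Several others leaned the same way in most gates, and those given with values here are examples. Rps29, a zinc-binding protein of the small subunit, stood at 6910 and 5666 CPM in NK cells (ratio 0.820), 7402 and 5737 in T cells (0.775), 8000 and 7303 in B cells (0.913) and 4871 and 4412 in monocytes and macrophages (0.906). Rps28 had ratios of 0.834, 0.794, 0.860 and 0.923 in the same order, and Rps27 0.902, 0.748, 0.914 and 0.910. Rpl38, Rpl37a and Rpl39 were also below 1 in each of these gates. On the high side, Rps2, the small subunit protein at the mRNA entry, had a ratio of 1.28 in T cells (2596 and 3311), 1.04 in NK cells, 1.09 in B cells and 1.25 in monocytes and macrophages (1180 and 1479). Rpl3, at the centre of the large subunit, had 1.12, 1.05, 1.06 and 1.24 in these gates. Rpl12 went both ways, with 0.953 in T cells, 1.02 in NK cells, 1.11 in B cells and 1.23 in monocytes and macrophages.

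Some of the largest ratios rested on few UMIs. Rpl39l in monocytes and macrophages had 22 and 46 UMIs and a ratio of 2.46 (1.45 to 4.29). Rpl7l1 in T cells had 75 and 105 UMIs and a ratio of 1.47 (1.08 to 2.003). Rps27l in T cells rested on more, 581 and 843 UMIs, with a ratio of 1.52 (1.37 to 1.70). In T cell barcodes below 5000 UMIs its ratio was 1.30 (134 and 175 CPM). The highest ratios in NK cells were 1.08 for Rps7, 1.08 for Rps14 and 1.06 for Rpl7. In B cells Rpl36a had 1.15 and Rpl14 1.13. Rps27rt had 0.743 in B cells (65 and 102 UMIs) and 0.881 in monocytes and macrophages (2103 and 1577 UMIs). In neutrophils Rps2 (3.31), Rpl7l1 (2.80, from 10 and 49 UMIs) and Rpl12 (2.64) were highest, and Rpl3l (0.761, from 24 and 32 UMIs), Rps27rt (0.816) and Rps29 (1.05) lowest. These neutrophil ratios include the deep barcodes described above. Below 5000 UMIs the ratio was 1.01 for Rpl12 (236 and 239 CPM), 0.783 for Rps27rt and 0.902 for Rps29.

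Genes around the ribosome were counted against the monocyte/macrophage gate in the same way. All genes measured were at least 1.5-fold higher in 33.8% and 34% (T), 33.2% and 31.2% (NK) and 33.5% and 32% (B) of cases. Ribosome assembly genes serve to make and process ribosomal RNA and to assemble the subunits. Of 24 such genes, 21 were at least 1.5-fold higher in T cells than in monocytes and macrophages in both libraries. In NK cells it was 23 and 22, and in B cells 15 and 18. The median log2 ratio of these genes in NK cells was 1.86 and 1.75. Ncl, which encodes nucleolin, stood at 975 and 870 CPM in NK cells, against 264 and 246. Of 16 translation factors and other TOP mRNAs, 12 and 13 were at least 1.5-fold higher in T cells, 13 and 12 in NK cells and 12 and 11 in B cells. Eef1a1, which brings tRNA to the ribosome, stood at 4103 and 4387 in NK cells, against 2350 and 2458.

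Further lists were counted too. Fau, which like Rps27a is made as a fusion, here with a relative of ubiquitin, and Rack1 are ribosomal proteins whose symbols the rule does not take. Rack1 stood at 2324 and 2480 in NK cells against 944 and 1105 in monocytes and macrophages, and Fau at 6605 and 6614 against 6132 and 6098. Of 24 mitochondrial ribosomal proteins, 7 and 4 were at least 1.5-fold higher in T cells and 11 and 7 in NK cells, and in B cells 1 was higher and 9 lower in each library. Of 12 growth signalling genes 2 and 3 were higher in T cells and 3 lower in each library. The share of all genes at least 1.5-fold lower in the T and B gates is not given here, so the lower counts cannot be set beside it. Myc, a driver of ribosome synthesis, stood at 137 and 211 CPM in B cells, and Eif4ebp1, a brake on translation under mTOR, at 180 and 194 in monocytes and macrophages against 24.3 and 47.0 in T cells.

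Between libraries, mitochondrial ribosomal proteins in T cells were higher in Ythdf2 KO by at least 1.2-fold for 10 of 24 and lower for none, beside 20.6% and 23.2% of all genes, with a median log2 ratio of 0.21 against −0.01 over all genes. The translation factors had 3 of 16 higher in T cells and 2 of 16 in monocytes and macrophages, beside 20.6% and 9.18% of all genes, with median log2 ratios of 0.18 and 0.20 against −0.01 and −0.04 over all genes. Ribosome assembly genes had 3 higher and 4 lower of 22 measured in T cells and 1 higher of 24 in monocytes and macrophages.

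Across 12 points (the T, NK, B, neutrophil, monocyte/macrophage and mature dendritic cell gates in each library), the log2 levels of 75 of 82 members followed the log2 summed share with a Pearson correlation over 0.9. The median was 0.987, against 0.44 over 2917 genes, and members are part of the sum. Rps27l was lowest at 0.08, followed by Rpl7l1 (0.71), Rps27rt (0.76), Rpl29 (0.81) and Rps27 (0.83). Outside the family the genes most like it were Snrpg (0.993) and Lsm6 (0.989), which encode small RNA-binding ring proteins, Cct2 (0.991), a subunit of the chaperonin that folds actin and tubulin, and Ubtf (0.991), which directs transcription of ribosomal RNA. Naca (0.985), which binds new chains at the ribosome, Ptma (0.985), Gm2000 (0.983), the helicase Dhx9 (0.983) and Eif3e (0.983), of an initiation factor, followed. The points share libraries, depth and the division by total UMIs, so these values describe a pattern over gates only.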

How the data were processed

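Raw UMI counts of each gene in each barcode were deposited, with no normalization by the authors. The build was mm10 per the submitters' processing notes, which name Seurat 4.0.4 and Cell Ranger 5.0.1. Per the file headers it was Cell Ranger 6.1.1, and both are given here. How reads that match several genes were counted is not given in the sources used here. The labels name a 5′ kit, and which end of the transcript was counted was not tested.

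Barcodes with at least 500 UMIs, at least 200 genes and at most 10% mitochondrial UMIs were kept. Each was assigned by UMIs of gate markers: 2 marker genes in most gates, 3 genes for mature dendritic cells, and 2 genes with 3 UMIs in all for monocytes and macrophages. No doublet caller was run, and barcodes that passed several gates were set aside. UMIs were summed per gate and library and given as a share of all UMIs or as CPM. Shares have exact binomial (Clopper-Pearson) and ratios exact conditional Poisson intervals at 95%, for counting error only. Genes with at least 50 UMIs over both sides of a ratio were measured. A difference of 1.2-fold between libraries or 1.5-fold between gates was counted, with the share of all genes past it beside the members. With 1 library per genotype no test was made.

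Named in the text are the 3 highest and 3 lowest ratios between libraries in the 5 large gates, the 10 members that varied most in their share of ribosomal protein UMIs, copies with their parent genes, the stalk proteins and Rpsa, and the 10 other genes most like the summed share; a few results that these rules would name are not reported here. Other members and list genes named as examples were chosen after their values were seen. The members, gates and gene lists were chosen with earlier results of these data known. Start windows came from RefSeq (GRCm38.p6), gene positions and transcripts from the GENCODE annotation of GRCm38. Software was biopython 1.88, matplotlib 3.10.9, pandas 2.3.3, scipy 1.17.1 and numpy 2.4.6 under Python 3.11.15. The counting scripts were tested on simulated data.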

Additional observations from a re-analysis of the deposited data

Results flagged for a closer look

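The difference between libraries had opposite directions in gates of the same samples. The pooled ribosomal protein share was lower in Ythdf2 KO by −0.67 percentage points in the T gate and −0.44 in the NK gate, and 1.05 points higher in the monocyte/macrophage gate. With 1 library per genotype the difference in direction was not tested, and the T gate did not keep its direction under 2 of the alternatives given below.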

How the results depend on the processing

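Of 201 results under an alternative, 141 kept their direction within the counting interval or, for counts, within 1.5 times; 57 moved further and 3 turned. The 3 were the Ythdf2 KO minus WT share in the T gate among barcodes below 5000 UMIs (0.83 percentage points) and as a mean over barcodes (0.011), and in the neutrophil gate when at most 1 UMI of other gates' markers was allowed (−0.0079). The limit of 5000 UMIs was chosen after seeing the data. Causes were not tested.

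For the T gate the difference was −0.24 with those stricter gates, −0.76 without the shared barcodes and −0.76 with the 20 largest other genes left out of the total. For the NK gate it was −0.49 with a mitochondrial limit of 5%, −0.53 with stricter gates, −0.48 without the 8% deepest barcodes, −0.15 below 5000 UMIs, −0.50 without mitochondrial UMIs in the total, −0.64 as a mean over barcodes and −0.24 without the 20 genes. For the B gate it was 1.08 (5% limit), 0.94 (stricter gates), 0.95 (without the deepest), 0.95 (below 5000 UMIs) and 1.11 (mean over barcodes). For the neutrophil gate it was 1.52 (5% limit), 0.72 (without the deepest), 0.15 (below 5000 UMIs), 2.40 (no mitochondrial UMIs), 0.20 (mean over barcodes) and 2.77 (without the 20 genes). For monocytes and macrophages it was 1.03 (5% limit), 1.11 (stricter gates), 1.03 (without the deepest), 0.80 (below 5000 UMIs), 1.14 (mean over barcodes) and 1.25 (without the 20 genes).

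The T share minus the monocyte/macrophage share in WT was 15.4 points with stricter gates, 16.8 below 5000 UMIs, 16.8 without mitochondrial UMIs, 15.8 as a mean over barcodes and 17.8 without the 20 genes. In Ythdf2 KO it was 14.01 with stricter gates, 14.9 without the deepest barcodes, 14.7 without the shared ones, 16.8 below 5000 UMIs, 14.99 without mitochondrial UMIs and 15.8 without the 20 genes.

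Members at least 1.2-fold higher in Ythdf2 KO numbered 2 in T cells without the deepest barcodes and 2 below 5000 UMIs, with 1 lower below 5000 UMIs. In NK cells 1 was higher with no minimum of UMIs per gene, 1 was higher below 5000 UMIs, and 1 was lower when centred on the median gene. In B cells 4 were higher with stricter gates and 1 was lower with at least 200 UMIs per gene. In neutrophils 3 were higher with stricter gates, 46 without the deepest barcodes and 7 below 5000 UMIs. There 0 were lower with at least 200 UMIs per gene, 1 with ribosomal protein UMIs left out of the total and 1 with the 5% limit. In monocytes and macrophages 11 were higher when centred, and 2 were lower below 5000 UMIs. Centring left 46 members at least 1.5-fold lower in Ythdf2 KO neutrophils than in monocytes and macrophages. Except for neutrophils below 5000 UMIs, described above, the share of all genes past the line under these alternatives is not given here. The counts therefore show only how the number of members changed. A pyrimidine run was found in 61.5% of members within 10 bases of the start, beside 34.9% of protein-coding genes. With at least 8 letters it was found in 32.3%, beside 5.16%.

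Stricter gates remove barcodes with stray markers, and shallow barcodes limit the smaller gates. No paired analysis was possible because each genotype has 1 library and the labels give no replicate number.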
